A study of Mus musculus with 12 samples.

Results

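The small leucine-rich proteoglycans are secreted matrix proteins, and 10 of their genes were followed here across 12 RNA-seq libraries of mouse C2C12 cells, a myoblast cell line that can be driven to form muscle fibres. The 10 genes are Fmod, Prelp, Lum, Dcn, Bgn, Ogn, Omd, Aspn, Kera and Podn, out of 38481 genes to which the counted transcripts were assigned. Fmod and Prelp were selected on their read counts with rapamycin against ethanol, which were higher with rapamycin in earlier results of these data, so their rapamycin values are given as a description without a test, and the other 8 genes were listed as relatives in the same family. Cells received siRNA for 3 days against Renilla luciferase, an enzyme that mouse cells do not have (called Luc siRNA below), or against Crebl2, a small nuclear protein related to the CREB transcription factors. They were then given 20 nM rapamycin, an inhibitor of the growth kinase complex mTORC1, or its solvent ethanol for 12 h. The 4 groups were Luc siRNA with ethanol, Luc siRNA with rapamycin, Crebl2 siRNA with ethanol and Crebl2 siRNA with rapamycin, each with 3 libraries of total RNA. No other treatment or genotype was labelled, and all cells grew in the same serum-containing medium. One siRNA against Crebl2 was labelled, in 1 cell line. No source used here says whether the libraries of a group came from separate cultures, so the p-values below reflect how much these libraries vary, and that variation may be technical.

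Small leucine-rich proteoglycans carry a protein core of leucine-rich repeats and, in many members, sulphated sugar chains. The class I members Dcn (decorin) and Bgn (biglycan) carry chondroitin or dermatan sulphate, while the class II members Fmod (fibromodulin), Lum (lumican), Prelp, Kera (keratocan) and Omd (osteomodulin) are mostly linked to keratan sulphate or bear none. Several of them bind collagen and shape how its fibrils grow, and decorin, biglycan and fibromodulin also bind TGF-beta, a growth factor that restrains myoblast differentiation. In muscle, decorin can bind and block myostatin, the TGF-beta relative that limits muscle mass.

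The libraries held 33404087 to 42891015 counted reads. Values below are CPM, the usual short form for a gene's reads scaled to a common library total, after TMM scaling, a correction for differences in library composition, and SD is the standard deviation over the 3 libraries of a group. Of the 38481 genes, 13247 passed a filter on low counts and were tested with edgeR's quasi-likelihood test. A gene was called when its p-value adjusted over all 13247 genes was below 0.05. Crebl2 itself stood at 23.8, 25.3 and 26.2 CPM with Luc siRNA and ethanol and at 4.87, 7.41 and 6.02 CPM with Crebl2 siRNA and ethanol. With rapamycin it stood at 39.96, 36.4 and 36.3 CPM with Luc siRNA and at 10.7, 8.97 and 9.49 CPM with Crebl2 siRNA. The siRNA groups did not overlap under either treatment, and Crebl2 fell by 2.05 (SE 0.11) on the log2 scale in ethanol and by 1.95 (SE 0.11) in rapamycin, with adjusted p-values of 3.69e-09 and 3.65e-09. Myoblast markers were present in every library (Myod1, Myf5, Des, Cdh15 and Pax7, summing to 2192 to 2923 CPM). The 7 markers of differentiating muscle, among them Myog and Acta1, were highest with Luc siRNA and ethanol. Their sum was 487 to 634 CPM with Luc siRNA and ethanol, 179 to 215 CPM with Luc siRNA and rapamycin, 60.6 to 73.7 CPM with Crebl2 siRNA and ethanol, and 37.9 to 48.1 CPM with both, with Tnnt1 at 0 in every library. These sums therefore moved with both factors, and their part in the results on the proteoglycans was not tested. In such bulk libraries fewer cells that make a transcript and less of it per cell cannot be told apart.

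Of the 10 members, 7 passed the filter and had reads in every library, namely Fmod, Prelp, Lum, Dcn, Bgn, Ogn and Omd. Kera had 16 reads in all, Aspn 2 and Podn 1. The deposited counts appear to leave out reads that fit more than 1 listed transcript, so that a gene is counted almost wholly over bases that belong to a single transcript. All of the exonic bases of Fmod, Prelp, Lum, Kera, Omd and Ogn were of that kind, but only 34.9% of those of Bgn, 18.7% of those of Dcn, 6.23% of those of Podn and 2.93% of those of Aspn. For Aspn and Podn the low counts therefore do not show that the genes were silent. Kera was fully countable, with 2, 7 and 3 reads with Luc siRNA and ethanol and 0 in all 3 libraries with Crebl2 siRNA and ethanol. A count of 0 there allows up to 0.0719 to 0.0900 CPM, the level of 3 reads, an allowance that covers counting error only.

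**Figure D1:**
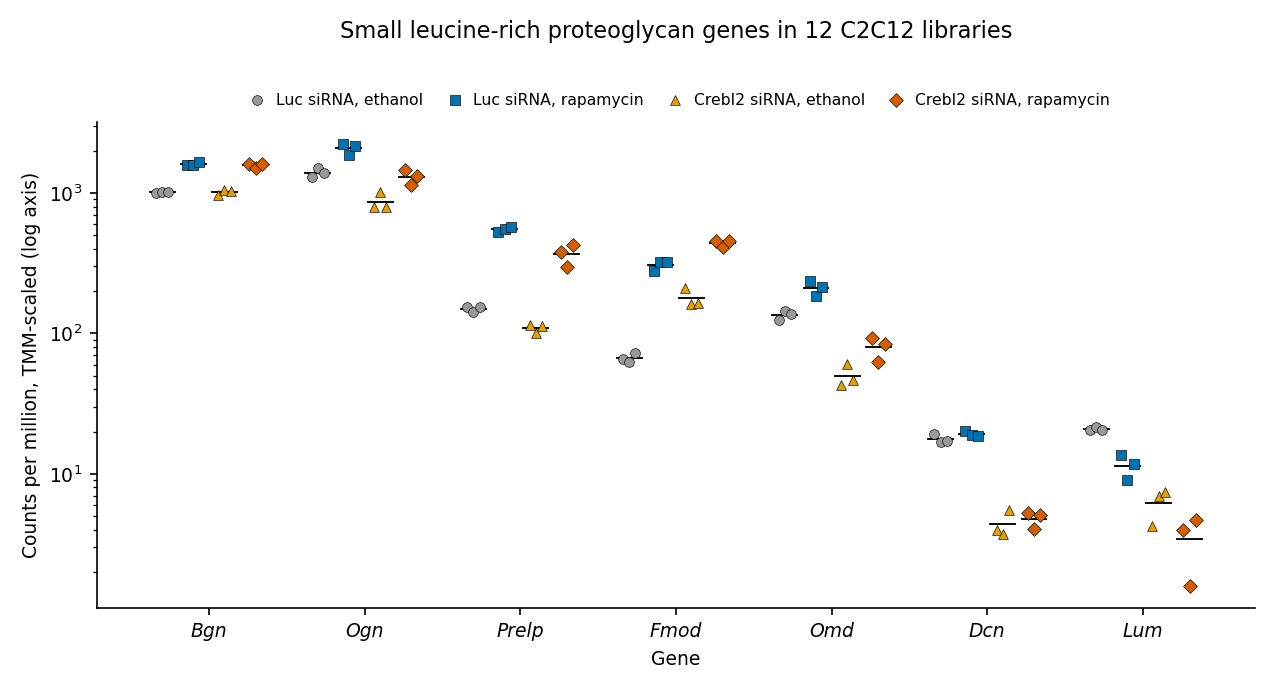
CPM (TMM-scaled, log axis) of the 7 members that passed the filter, with 1 point per library, 3 libraries per group and a line at each group mean. Fmod is highest with both Crebl2 siRNA and rapamycin, while Dcn and Lum are lowest in the Crebl2 siRNA groups and Bgn separates by rapamycin alone.

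Fmod, whose product fibromodulin binds collagen and slows fibril growth, had its lowest values in the Luc siRNA cells with ethanol and its highest in the Crebl2 siRNA cells with rapamycin. Its level was 65.3, 62.4 and 72.4 CPM with Luc siRNA and ethanol. With Luc siRNA and rapamycin it was 279, 322 and 324 CPM. The Crebl2 siRNA libraries stood at 211, 161 and 164 CPM in ethanol and 456, 415 and 452 CPM in rapamycin. No 2 of the 4 groups overlapped. As a description of the contrast by which it was chosen, Fmod was 4.62-fold higher with rapamycin in the Luc siRNA cells (log2 fold change 2.21, SE 0.10) and 2.46-fold higher in the Crebl2 siRNA cells (log2 fold change 1.30, SE 0.09). The siRNA contrasts were not named in that choice, but each shares its ethanol or its rapamycin libraries with it, so the siRNA tests of Fmod and of Prelp are not independent of the choice. Low values in the chosen ethanol libraries favour a rise of Fmod with the siRNA in ethanol. Fmod rose with Crebl2 siRNA by 1.42 (SE 0.09) on the log2 scale in ethanol and by 0.52 (SE 0.09) in rapamycin, with edgeR adjusted p-values of 2.58e-08 and 0.000432. It was the 1 member of the 7 that was called higher with Crebl2 siRNA.

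Prelp, which encodes a protein with a heparin-binding amino-terminal region that can link basement membranes to collagen, was also high with rapamycin but moved the other way with the siRNA. Its level was 153, 141 and 154 CPM with Luc siRNA and ethanol and 530, 554 and 569.8 CPM with Luc siRNA and rapamycin. The Crebl2 siRNA values were 115, 100.1 and 114 CPM in ethanol and 377, 297 and 427 CPM in rapamycin. The 4 groups again did not overlap. As a description, Prelp was 3.69-fold higher with rapamycin in the Luc siRNA cells (log2 fold change 1.88, SE 0.10) and 3.35-fold higher in the Crebl2 siRNA cells (log2 fold change 1.75, SE 0.10). In the siRNA contrasts Prelp fell by 0.45 (SE 0.10) on the log2 scale in ethanol and by 0.59 (SE 0.09) in rapamycin, with edgeR adjusted p-values of 0.00176 and 0.000205. As for Fmod, these libraries also served the choice, and high values in the chosen rapamycin libraries favour a fall in rapamycin. An antisense gene, Gm15851, covers 9.68% of the exonic bases of Prelp but had at most 1 read in any library.

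Fmod and Prelp are neighbours on mouse chromosome 1, and their upstream sequences are shown because the pair was high with rapamycin together yet split under the siRNA. Each is the 250 bases before the RefSeq transcription start (GRCm38.p6), written 5′ to 3′ on the strand of the gene. Fmod lies at chr1:134037004-134037253 (+) and Prelp at chr1:133921402-133921651 (-). Capitals mark matches on either strand to the E-box CANNTG (bound by myogenic and other basic helix-loop-helix factors), the TATA box TATAAA and the SMAD box CAGAC (bound by SMAD factors of the TGF-beta pathway).
Fmod: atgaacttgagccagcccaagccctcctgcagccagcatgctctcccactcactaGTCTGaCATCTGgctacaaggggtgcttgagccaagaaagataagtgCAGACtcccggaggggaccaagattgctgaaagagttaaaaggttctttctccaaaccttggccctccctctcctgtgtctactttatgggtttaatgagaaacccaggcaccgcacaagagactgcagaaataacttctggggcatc
Prelp: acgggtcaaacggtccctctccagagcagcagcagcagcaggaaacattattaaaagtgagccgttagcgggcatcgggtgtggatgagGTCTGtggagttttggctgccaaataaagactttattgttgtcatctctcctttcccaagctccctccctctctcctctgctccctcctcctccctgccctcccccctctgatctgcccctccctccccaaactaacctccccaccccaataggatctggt
The Fmod window held 1 E-box, the word CATCTG beginning 189 bases before the start, and 2 SMAD boxes, beginning 195 and 148 bases before it. The Prelp window held 1 SMAD box, beginning 161 bases before the start, and no E-box. Neither held the CRE half-site TGACG, the AP-1 site TGANTCA or the forkhead site GTAAACA on either strand. Over 32817 promoter windows of the same length, 66.2% held the E-box, 42.2% the SMAD box, 12.4% the TATA box, 17.7% the CRE half-site, 6.75% the AP-1 site and 3.16% the forkhead site. These matches are letters in a window and were not measured as binding sites.

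Lum, whose product lumican spaces collagen fibrils in cornea, tendon and skin, was the 1 tested member called lower with rapamycin. It stood at 20.4, 21.7 and 20.4 CPM with Luc siRNA and ethanol and at 13.5, 9.02 and 11.8 CPM with Luc siRNA and rapamycin. Under Crebl2 siRNA the gene stood at 4.26, 6.93 and 7.43 CPM in ethanol and at 3.98, 1.60 and 4.65 CPM in rapamycin. The groups were separate except for the pair with Crebl2 siRNA, where the highest rapamycin library lay above the lowest ethanol library. Lum fell with rapamycin by 0.87 (SE 0.23) in the Luc siRNA cells and by 0.86 (SE 0.28) in the Crebl2 siRNA cells on the log2 scale, with edgeR adjusted p-values of 0.00675 and 0.0185. The second call was lost with DESeq2 (log2 fold change -0.84, adjusted p = 0.0512) and without any 1 of 3 libraries, with values of -0.78 without replicate 2 and -0.71 without replicate 3 of Crebl2 siRNA with ethanol and of -0.50 without replicate 2 of Crebl2 siRNA with rapamycin. Over all alternatives its adjusted p in that contrast reached up to 0.0831. The lowest, 2.26e-11, lay far below the 0.0185 of the main edgeR fit and is no measure of how firm the call is. With Crebl2 siRNA, Lum fell by 1.75 (SE 0.24) in ethanol and by 1.74 (SE 0.27) in rapamycin, with adjusted p-values of 4.44e-05 and 0.000128. Lum rests on 55 to 913 reads per library.

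Omd, which encodes osteomodulin of bone and tooth matrix, rose with rapamycin and fell with Crebl2 siRNA. It stood at 124, 143 and 136 CPM with Luc siRNA and ethanol and at 237, 184 and 215 CPM with Luc siRNA and rapamycin. The Crebl2 siRNA values were 43.2, 60.7 and 46.4 CPM in ethanol and 92.2, 62.4 and 83.5 CPM in rapamycin. All 4 groups were separate, although the lowest rapamycin library with Crebl2 siRNA lay just above the highest ethanol one. Omd rose with rapamycin by 0.66 (SE 0.13) with Luc siRNA and by 0.67 (SE 0.14) with Crebl2 siRNA on the log2 scale, with edgeR adjusted p-values of 0.000883 and 0.000948. Omd fell with Crebl2 siRNA by 1.43 (SE 0.14) in ethanol and by 1.42 (SE 0.14) in rapamycin, with adjusted p-values of 1.35e-06 and 1.31e-06.

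Among the class I members, Dcn moved with the siRNA and Bgn with the drug. Dcn stood at 19.2, 17.0 and 17.1 CPM with Luc siRNA and ethanol and at 20.0, 19.0 and 18.6 CPM with Luc siRNA and rapamycin. With Crebl2 siRNA it stood at 4.003, 3.72 and 5.49 CPM in ethanol and at 5.23, 4.06 and 5.11 CPM in rapamycin. The siRNA groups were far apart and the drug groups overlapped. Dcn fell with Crebl2 siRNA by 2.00 (SE 0.13) on the log2 scale in each treatment, 4.01-fold in ethanol and 3.99-fold in rapamycin, with edgeR adjusted p-values of 1.45e-08 and 1.57e-08. Its log2 change with rapamycin was 0.11 (SE 0.11, adjusted p = 0.459) with Luc siRNA and 0.12 (SE 0.14, adjusted p = 0.522) with Crebl2 siRNA, and neither was called. These values come from 2 listed transcripts with 181 own bases each, and 5187 of the 5280 reads fell on Dcn-201 and 93 on Dcn-202.

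Bgn, whose product biglycan binds TGF-beta and links the dystrophin complex of the muscle membrane to the matrix, stood at 999.97, 1010.1 and 1016 CPM with Luc siRNA and ethanol. With Luc siRNA and rapamycin it stood at 1572, 1584 and 1659 CPM. The Crebl2 siRNA values were 964, 1043 and 1039.6 CPM in ethanol and 1610.4, 1509.8 and 1607 CPM in rapamycin. The 6 rapamycin libraries all lay above the 6 ethanol libraries, and the siRNA groups overlapped within each treatment. Bgn rose with rapamycin 1.59-fold with Luc siRNA (log2 0.67, SE 0.04) and 1.55-fold with Crebl2 siRNA (log2 0.63, SE 0.04), with edgeR adjusted p-values of 9.81e-09 and 1.34e-08. Its log2 change with Crebl2 siRNA was 0.01 (SE 0.04, adjusted p = 0.89) in ethanol and -0.03 (SE 0.04, adjusted p = 0.692) in rapamycin, and neither was called. All 581070 reads of Bgn fell on Bgn-201, over its 845 own bases.

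Ogn, the class III member, encodes osteoglycin (mimecan) and had the most reads of the 10 genes, 634705. It stood at 1292, 1497 and 1394 CPM with Luc siRNA and ethanol and at 2242, 1869 and 2149 CPM with Luc siRNA and rapamycin. The Crebl2 siRNA libraries stood at 798, 1018 and 788 CPM in ethanol and at 1460.1, 1147 and 1313 CPM in rapamycin. All 4 pairs of groups compared were separate, and the directions were those of Omd with smaller changes under the siRNA. Ogn rose with rapamycin by 0.58 (SE 0.10) with Luc siRNA and by 0.59 (SE 0.10) with Crebl2 siRNA on the log2 scale, with edgeR adjusted p-values of 0.000276 and 0.000199. Ogn fell with Crebl2 siRNA by 0.68 (SE 0.10) in ethanol and by 0.67 (SE 0.10) in rapamycin, with adjusted p-values of 8.88e-05 and 0.000119.

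Ogn and Omd lie side by side on chromosome 13 and moved in the same direction in all 4 contrasts, so their upstream windows are shown in the same form as those of Fmod and Prelp, with the same words in capitals. The Ogn window is chr13:49607765-49608014 (+) and the Omd window chr13:49582212-49582461 (+), both of GRCm38.p6 from RefSeq.
Ogn: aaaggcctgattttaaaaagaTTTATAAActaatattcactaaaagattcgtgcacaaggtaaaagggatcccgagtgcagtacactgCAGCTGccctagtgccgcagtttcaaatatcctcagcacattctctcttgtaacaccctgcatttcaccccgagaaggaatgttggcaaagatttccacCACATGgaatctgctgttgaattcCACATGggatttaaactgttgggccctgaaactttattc
Omd: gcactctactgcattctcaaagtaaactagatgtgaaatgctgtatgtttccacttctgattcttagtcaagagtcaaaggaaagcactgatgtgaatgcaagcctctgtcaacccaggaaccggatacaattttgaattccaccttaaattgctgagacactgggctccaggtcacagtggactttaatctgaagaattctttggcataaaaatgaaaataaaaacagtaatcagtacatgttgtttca
The Ogn window held 3 E-boxes, beginning 162, 63 and 39 bases before the start, and a pair of overlapping TATA box matches on opposite strands, beginning 229 and 227 bases before it. The Omd window held none of the 6 motifs searched. RefSeq windows were matched for 8 of the 10 members, and no member window held the CRE half-site, the AP-1 site or the forkhead site.

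Counted over the 7 members that passed the filter, 5 were called lower and 1 higher with Crebl2 siRNA in ethanol, beside 17.0% of all tested genes called lower and 21.4% called higher. Under rapamycin the counts were again 5 lower and 1 higher, beside 16.8% of all tested genes lower and 16.3% higher. Dcn, Lum, Omd, Ogn and Prelp were lower in each, Fmod was higher in each, and Bgn was not called in either. Of the 5 members that were not chosen on their rapamycin values, 4 were lower and 0 higher in each. The 2 siRNA comparisons have no library in common. In each of them the groups did not overlap for 6 of the 7 members, beside 46.9% of all tested genes in ethanol and 46.0% in rapamycin. The median log2 change of the 7 was -0.68 in ethanol and -0.67 in rapamycin, while the median over all tested genes was 0.01 and -0.01. Since genes that pass a filter through a high group are more likely to differ, these counts describe the members and do not set them apart from other genes.

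**Figure D2:**
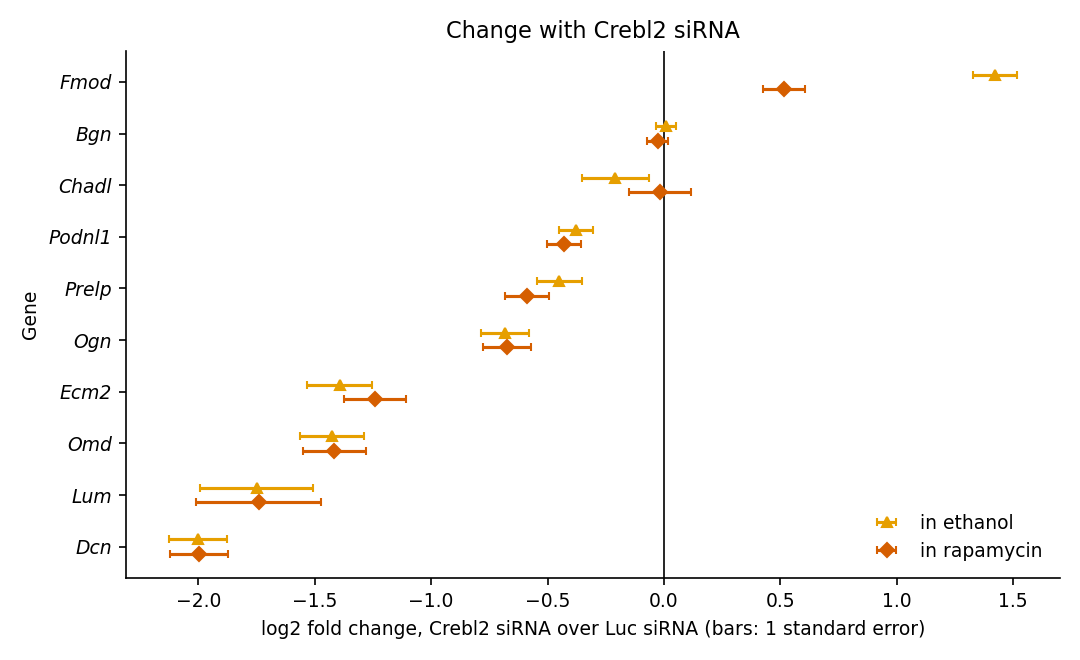
The log2 fold change of Crebl2 siRNA over Luc siRNA (x axis, bars 1 SE, from edgeR) for the 7 members that passed the filter and 3 relatives, in ethanol (triangles) and in rapamycin (diamonds). Most pairs of points lie close together, with Dcn the lowest and Bgn at 0.01 and -0.03, while Fmod is at 1.42 in ethanol and 0.52 in rapamycin.

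With rapamycin, the 5 members that were open to a test were Bgn, Omd, Ogn, Lum and Dcn. In the Luc siRNA cells 3 of them were called higher and 1 lower, beside 19.5% of all tested genes higher and 21.6% lower. In the Crebl2 siRNA cells the counts were again 3 higher and 1 lower, beside 19.7% higher and 25.6% lower. Bgn, Omd and Ogn rose, Lum fell, and Dcn was not called in either. The 2 rapamycin comparisons share no library, but each shares libraries with the siRNA comparisons above. The median log2 change of the 5 was 0.58 with Luc siRNA and 0.59 with Crebl2 siRNA, and over all tested genes it was 0.02 and -0.01.

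The change of the rapamycin response with Crebl2 siRNA was near 0 for all 5 testable members. The difference of the log2 changes (Crebl2 siRNA minus Luc siRNA) was 0.00 (SE 0.17) for Dcn, -0.04 (SE 0.06) for Bgn, 0.01 (SE 0.38) for Lum, 0.01 (SE 0.19) for Omd and 0.01 (SE 0.14) for Ogn. None of the 5 was called by edgeR, and the lowest adjusted p was 0.855, for Bgn, beside 0.611% of all tested genes called higher and 0.589% called lower. The standard errors leave room for differences that these libraries would not show, most of all for Lum and also for Omd, Dcn and Ogn. For Fmod the difference was -0.91 (SE 0.13) and for Prelp -0.14 (SE 0.14), given as a description because both contain the contrasts that chose them. The group means of Fmod were 66.7 and 308 CPM without and with rapamycin in the Luc siRNA cells and 179 and 441 CPM in the Crebl2 siRNA cells.

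**Figure D3:**
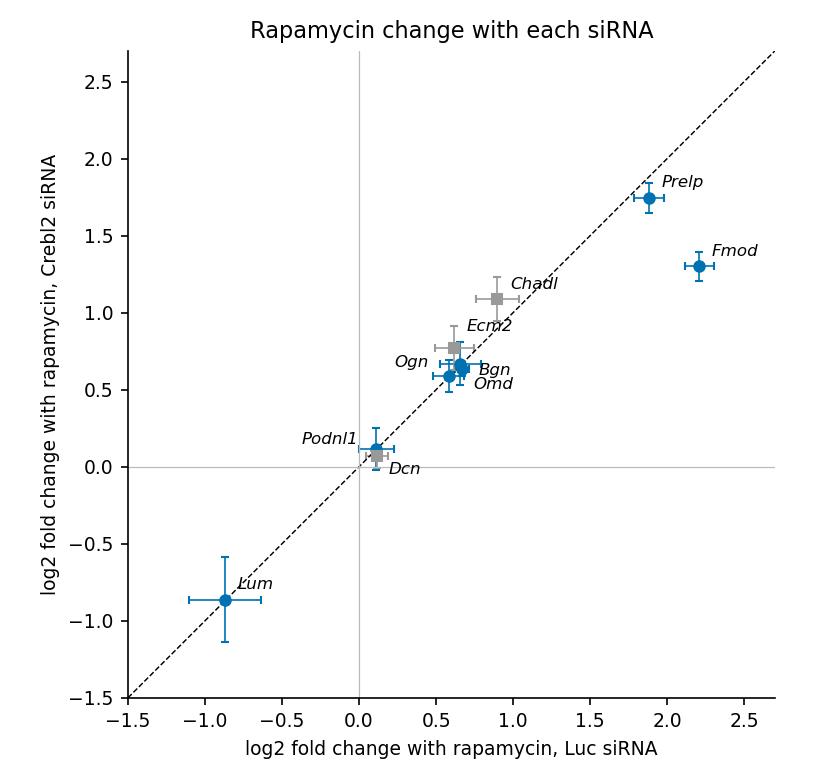
The log2 fold change with rapamycin in Luc siRNA cells (x axis) against that in Crebl2 siRNA cells (y axis), with 1 SE bars from edgeR, for the 7 members (blue circles) and 3 relatives (grey squares). The dashed line marks equal change, and Fmod, at 2.21 and 1.30, lies below it.

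Levels of different genes can be compared only per length, here as CPM per kb of countable exon. On that scale Bgn was the highest in every group and Ogn the second, with no overlap between them. With Luc siRNA and ethanol Bgn stood at 1194 ± 9.80 and Ogn at 543 ± 40.03 (SD, n = 3), which made 61.4% and 28.0% of the sum of the 7 members. Next came Omd at 86.4 ± 6.40, Dcn at 49.1 ± 3.40, Prelp at 41.4 ± 1.98, Fmod at 21.4 ± 1.65 and Lum at 8.52 ± 0.304, with no overlap between neighbours in that order. The place of Dcn is uncertain, because nearly all of its reads fell on the own bases of 1 of its 2 transcripts, and the other transcript's bases lower its value per length.

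The order below Ogn changed with both treatments. With Luc siRNA and rapamycin Prelp took the third place at 152 ± 5.57, although its libraries overlapped with those of Omd at 136 ± 17.1, and Fmod stood at 98.8 ± 8.16 per kb. With Crebl2 siRNA and ethanol Fmod took the third place at 57.3 ± 8.98, above Omd at 32.2 ± 5.99 and Prelp at 30.3 ± 2.24, which overlapped. With Crebl2 siRNA and rapamycin Fmod stood at 141 ± 7.17, Prelp at 101 ± 18.1 and Omd at 51.0 ± 9.85, with no overlap. Lum was the lowest of the 7 in every group. The ratio of Prelp to Fmod per kb was 1.94 ± 0.0922 with Luc siRNA and ethanol and 1.55 ± 0.0811 with Luc siRNA and rapamycin. With Crebl2 siRNA it was 0.534 ± 0.0649 in ethanol and 0.716 ± 0.0987 in rapamycin, so that the more abundant of the pair was Prelp in all 6 Luc siRNA libraries and Fmod in all 6 Crebl2 siRNA libraries. The ratio of Ogn to Omd was 6.29 ± 0.0783 and 5.98 ± 0.217 with Luc siRNA and 10.6 ± 0.562 and 10.1 ± 0.911 with Crebl2 siRNA, in ethanol and rapamycin respectively.

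**Figure D4:**
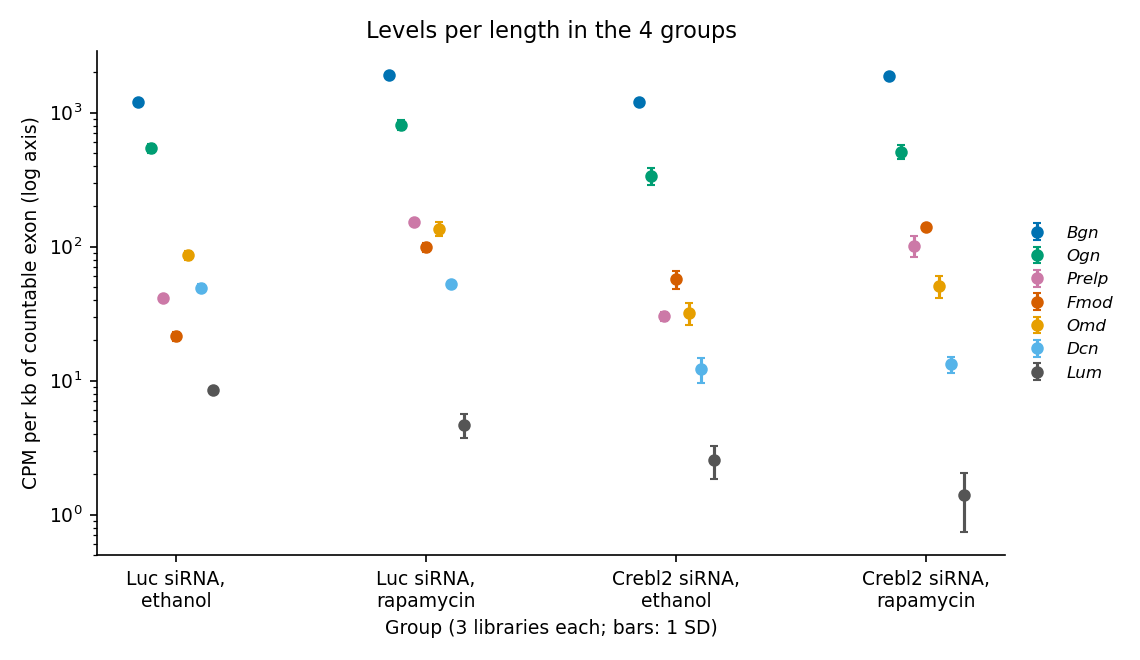
Mean level per kb of countable exon (log axis, bars 1 SD over 3 libraries) of the 7 members in the 4 groups. Bgn and Ogn lead in every group, and Fmod moves from 21.4 with Luc siRNA and ethanol to 141 with Crebl2 siRNA and rapamycin.

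The sum of the 7 members per kb was 1944 ± 48.5 with Luc siRNA and ethanol and 3158 ± 114 with Luc siRNA and rapamycin. With Crebl2 siRNA it was 1675 ± 85.7 in ethanol and 2682 ± 159 in rapamycin. The ranges of the 4 groups did not overlap, and Bgn, which did not pass the test with the siRNA, made 60.1% to 71.8% of the sum. Replicate 2 of Crebl2 siRNA with rapamycin was the lowest of its group for all 7 members, while no other library was the lowest for more than 4 of them. Its total of 36104338 reads lay between those of the other 2 libraries of the group.

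Among 8 further members or close relatives of the family, 5 passed the filter. Ecm2, a leucine-rich matrix protein gene next to Aspn, stood at 12.0 ± 0.558 CPM with Luc siRNA and ethanol and at 18.4 ± 3.19 CPM with Luc siRNA and rapamycin. With Crebl2 siRNA it stood at 4.56 ± 0.482 CPM in ethanol and at 7.78 ± 1.22 CPM in rapamycin. Ecm2 thus showed the directions of Omd and Ogn. It fell with Crebl2 siRNA by 1.39 (SE 0.14) in ethanol and by 1.24 (SE 0.13) in rapamycin on the log2 scale, with edgeR adjusted p-values of 1.75e-06 and 3.65e-06. It rose with rapamycin by 0.62 (SE 0.13) with Luc siRNA and by 0.77 (SE 0.14) with Crebl2 siRNA, with adjusted p-values of 0.000961 and 0.000369. Chadl, a chondroadherin-like gene known from cartilage, rose with rapamycin by 0.90 (SE 0.14) and 1.09 (SE 0.14), and was not called with the siRNA (-0.21 in ethanol and -0.02 in rapamycin). Podnl1, the podocan-like gene, fell with Crebl2 siRNA by 0.38 (SE 0.07) and 0.43 (SE 0.07), and was not called with rapamycin (0.12 with Luc siRNA and 0.07 with Crebl2 siRNA). Chad, which encodes chondroadherin, had 2 to 17 reads per library and Nyx, which encodes nyctalopin of the retina, 3 to 13, and neither was called in any of the 4 contrasts. Optc, which adjoins Prelp, had at most 7 reads in a library, Tsku at most 4, and Epyc 0 in all 12. Only 0.234 kb of Optc and 0.259 kb of Tsku were countable, so their low counts do not show that the genes were silent.

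The members sit in clusters in the genome (GENCODE M21, GRCm38). Prelp (chr1:133910304-133921414, minus strand) and Fmod (chr1:134037254-134048277, plus strand) span 138 kb, with their starts 115840 bases apart. Dcn, Lum and Kera lie within 134 kb on chromosome 10, and Aspn, Omd and Ogn within 80.1 kb on chromosome 13, where Ecm2 adjoins them. Bgn lies on chromosome X and Podn on chromosome 4. In the chromosome 13 cluster the 3 family genes with tests, Ecm2, Omd and Ogn, were called lower with Crebl2 siRNA and higher with rapamycin. Of 6 tested genes other than members within 300 kb, Ecm2 among them, 3 were higher and 1 lower with Crebl2 siRNA in ethanol. In rapamycin 2 were higher and 1 lower. The shares of all tested genes were 21.4% higher and 17.0% lower in ethanol and 16.3% and 16.8% in rapamycin. With rapamycin 3 of the 6 were higher and 1 lower in the Luc siRNA cells (19.5% and 21.6% of all). In the Crebl2 siRNA cells 2 were higher and 3 lower (19.7% and 25.6%). Cenpp, a centromere protein gene that runs antisense across Aspn, Omd and Ogn without sharing exonic bases, fell with rapamycin by 0.79 (SE 0.10) in Luc siRNA cells and was not called with the siRNA. On chromosome 10 Dcn and Lum both fell with Crebl2 siRNA and differed under rapamycin, as given above.

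No other tested gene within 300 kb of Fmod or Prelp rose as far with rapamycin as the pair did. The pair was chosen for its rise with rapamycin, so this order was favoured by the choice and is a description only. Of 15 neighbours within that distance 7 passed the filter. With rapamycin 0 were called higher and 3 lower by edgeR in the Luc siRNA cells, beside 19.5% and 21.6% of all tested genes. In the Crebl2 siRNA cells 1 was called higher and 2 lower, beside 19.7% and 25.6%. Counts over 7 genes are too small to set these neighbours apart from other genes. Btg2, an antiproliferative gene whose start lies 41866 bases from that of Fmod, had a log2 change with rapamycin of -0.04 (SE 0.05) with Luc siRNA and rose by 0.58 (SE 0.05) with Crebl2 siRNA. Myog, the myogenic factor gene myogenin, 252735 bases from the Fmod start, fell with rapamycin by 1.45 (SE 0.14) and 1.17 (SE 0.17). Tmem183a fell by 0.43 (SE 0.04) and 0.41 (SE 0.04). Ppfia4 fell by 1.08 (SE 0.38) with Luc siRNA and had a log2 change of -1.32 (SE 0.78) with Crebl2 siRNA. Atp2b4, a plasma membrane calcium pump gene, Lax1 and Gm38394 were not called in either.

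**Figure D5:**
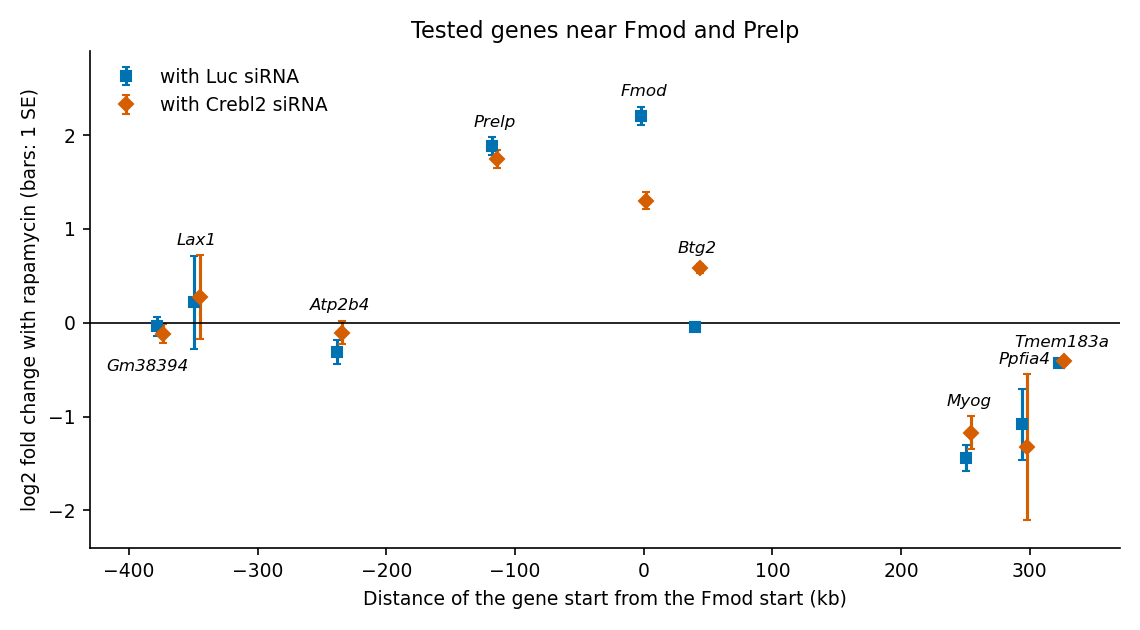
The log2 fold change with rapamycin (y axis, bars 1 SE, from edgeR) of the tested genes near Fmod and Prelp against the distance of their start from the Fmod start in kb (x axis), with Luc siRNA (squares) and Crebl2 siRNA (diamonds). Prelp and Fmod, which were chosen for their rise with rapamycin, stand above 1, while the 7 other genes lie between -1.45 and 0.58.

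The genes whose log2 CPM followed Fmod most closely over the 12 libraries, among 7007 protein-coding genes that averaged 5 CPM or more, were Smoc2, Trp53bp2, Ahr, Rasl11a and F2r, with Pearson's r of 0.994, 0.988, 0.988, 0.983 and 0.981. Smoc2, which encodes a secreted calcium-binding matrix protein, stood at 3.96 ± 0.117, 13.8 ± 1.13, 8.64 ± 0.550 and 21.1 ± 0.765 CPM in the groups Luc siRNA with ethanol, Luc siRNA with rapamycin, Crebl2 siRNA with ethanol and Crebl2 siRNA with rapamycin. Ahr, the aryl hydrocarbon receptor gene, stood at 38.1 ± 1.45, 80.2 ± 2.80, 59.2 ± 4.28 and 85.2 ± 3.66 CPM in the same order. Both were lowest and highest in the same groups as Fmod. Closest to Prelp were Slc44a2, Enc1, Heca, Vps11 and Clip4, with r of 0.994, 0.992, 0.991, 0.991 and 0.990, and among the members Bgn was at 0.955. Slc44a2, a choline transporter-like gene, stood at 842 ± 19.0, 1105 ± 8.68, 763 ± 22.4 and 996 ± 39.4 CPM, a far smaller span than that of Prelp. The r of Fmod with Prelp was 0.695. The 12 libraries fall into 4 groups, so these correlations describe the likeness of 4 group levels and carry no test.

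Partners and makers of the proteoglycans were read from lists chosen with earlier results of these data known. Of 14 tested genes known to respond to TGF-beta family signals, 11 were called higher and 2 lower with rapamycin in the Luc siRNA cells, and 12 higher and 1 lower in the Crebl2 siRNA cells. Over all tested genes 19.5% were higher and 21.6% lower in the first comparison and 19.7% and 25.6% in the second. The median log2 change of the 14 was 0.73 and 0.75, against 0.02 and -0.01 over all genes. In the Luc siRNA cells Tagln, a smooth muscle actin-binding protein gene, rose by 1.12 (SE 0.06) and Id2, an inhibitor of basic helix-loop-helix factors, by 0.90 (SE 0.07). Ltbp2, a latent TGF-beta binding protein relative, rose by 1.36 (SE 0.10), although only 2.47% of Ltbp2 was countable. With Crebl2 siRNA in ethanol 6 of the 14 were higher and 2 lower, among them Tagln, which rose by 1.22 (SE 0.06), and in rapamycin 7 were higher and 2 lower. The shares over all tested genes were 21.4% higher and 17.0% lower in ethanol and 16.3% and 16.8% in rapamycin.

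Of 20 tested growth factors, receptors and other proteins that bind the family, 10 were called higher and 2 lower with rapamycin in the Luc siRNA cells (19.5% and 21.6% of all tested genes), and 9 higher and 2 lower in the Crebl2 siRNA cells (19.7% and 25.6%). Tgfb3, a TGF-beta ligand gene, rose by 0.75 (SE 0.05) with Luc siRNA and by 0.71 (SE 0.05) with Crebl2 siRNA, Tlr2, a receptor for soluble biglycan, rose by 0.57 (SE 0.05) with Luc siRNA, and Ccn2, a matricellular gene that is also on the TGF-beta list, by 2.44 (SE 0.23) from a low level over 23.8% of its exonic bases. With Crebl2 siRNA the list split, with 8 higher and 3 lower in ethanol (21.4% and 17.0% of all tested genes) and 5 higher and 6 lower in rapamycin (16.3% and 16.8%). Tgfbr3, which encodes the TGF-beta co-receptor betaglycan, fell by 1.17 (SE 0.06) in ethanol and by 1.36 (SE 0.06) in rapamycin.

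For this list and those that follow, the shares of all tested genes called were 19.5% higher and 21.6% lower with rapamycin in the Luc siRNA cells and 19.7% and 25.6% in the Crebl2 siRNA cells. With Crebl2 siRNA they were 21.4% and 17.0% in ethanol and 16.3% and 16.8% in rapamycin. Of 18 tested enzymes that build chondroitin and dermatan sulphate chains, 5 were called higher and 1 lower with rapamycin in the Luc siRNA cells and 2 higher and 3 lower in the Crebl2 siRNA cells, while with Crebl2 siRNA 3 were higher and 3 lower in ethanol and 4 higher and 5 lower in rapamycin. Dse, the epimerase that turns chondroitin into dermatan sulphate, fell with Crebl2 siRNA by 0.36 (SE 0.04) in ethanol and by 0.51 (SE 0.04) in rapamycin. Csgalnact1, which starts chondroitin chains, rose by 0.76 (SE 0.09) in ethanol. Of 12 tested genes of keratan sulphate synthesis and sulphate supply, 2 were higher and 1 lower with rapamycin in the Luc siRNA cells and 2 higher and 3 lower in the Crebl2 siRNA cells, led by the sialyltransferase gene St3gal1, which fell by 0.55 (SE 0.05) and 0.50 (SE 0.05). With Crebl2 siRNA the counts were 3 higher and 3 lower in ethanol and 2 higher and 3 lower in rapamycin.

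The next list held 10 tested genes of proteases known to cut members of the family, or of a protease enhancer. It is read against the same shares of all genes (19.5% higher and 21.6% lower in the first comparison). Of the 10, 3 were called higher and 3 lower with rapamycin in the Luc siRNA cells and 6 higher and 3 lower in the Crebl2 siRNA cells. Bmp1, which cleaves the biglycan propeptide, rose by 0.33 (SE 0.05) and 0.35 (SE 0.05), and Adamts1 fell by 0.94 (SE 0.09) in the Luc siRNA cells. With Crebl2 siRNA 2 were higher and 4 lower in ethanol and 3 higher and 3 lower in rapamycin, and Mmp14, a membrane-bound protease that cuts lumican, fell by 0.65 (SE 0.05) and 0.77 (SE 0.05). A further list held 20 tested genes of fibrillar and associated collagens, lysyl oxidases and a few other matrix proteins. Of these, 8 were higher and 4 lower with rapamycin in the Luc siRNA cells and 5 higher and 5 lower in the Crebl2 siRNA cells. With Crebl2 siRNA 8 were higher and 4 lower in ethanol and 7 higher and 5 lower in rapamycin, among them Col5a3, which rose by 0.90 (SE 0.07) and 1.06 (SE 0.07), and Col6a1, which fell by 0.76 (SE 0.05) and 1.16 (SE 0.05).

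Markers of other matrix-making cells were looked at because the family is abundant in them. The tendon markers summed to 151 to 216 CPM with Luc siRNA and ethanol, 192 to 266 CPM with Luc siRNA and rapamycin, 135 to 166 CPM with Crebl2 siRNA and ethanol and 206 to 234 CPM with Crebl2 siRNA and rapamycin. Nearly all of that sum was Scx, while Tnmd was low and Thbs4 near 0. The cartilage and bone markers summed to 107 to 145 CPM over the 4 groups, nearly all of it Sox9, with Acan and Col2a1 near 0 and Ibsp at 0 in every library. Markers of fat summed to at most 1.62 CPM, and those of endothelium, leukocytes and nerve sheath to at most 0.623 CPM. The tendon sums of the rapamycin and ethanol libraries overlapped with Luc siRNA and did not with Crebl2 siRNA, where Scx was called higher with rapamycin (log2 0.54, SE 0.13). With Luc siRNA the log2 change of Scx was 0.32 (SE 0.13), which was not called. Tnmd rose with Crebl2 siRNA by 0.95 (SE 0.19) in ethanol and by 1.01 (SE 0.20) in rapamycin, and Fabp4, a fat marker, by 1.78 (SE 0.34) and 1.66 (SE 0.31), both from low levels. The other tested tendon markers, Scx (-0.25, SE 0.13) and Mkx (-0.19, SE 0.08), were not called with Crebl2 siRNA in ethanol. In rapamycin 1 of the 3 tested tendon markers was called higher and 1 lower. Fabp4 was the 1 fat marker of 4 that passed the filter. The part of these markers in the results on the proteoglycans was not tested.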

How the data were processed

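RNA-seq was done on 12 libraries of C2C12 cells in 4 groups of 3, made from total RNA with a strand-specific kit, per the labels' protocols. Trim Galore, TopHat and HTSeq, and the builds mm9 and GRCm38, are named in the submitters' processing notes, and their versions, settings and annotation are not given in the sources used here. The deposited values are raw counts per Ensembl transcript, with no normalization, for 58611 transcripts in each library. The deposited counts appear to leave out reads shared between transcripts. Of 8480 protein-coding ones lacking any base of their own 99.3% had 0 reads, against 32.0% of the 31661 others.

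Transcript identifiers were matched to GENCODE M21 without their version (58264 matched, 99.4%, and the others held 0.0382% of reads) and counts were summed per gene. edgeR 4.0.16 in R 4.3.3 was fitted to all 12 libraries with 1 mean per group, TMM scaling and a minimum count of 10 in its expression filter, with p-values adjusted by Benjamini-Hochberg over 13247 genes. The standard error of a log2 fold change is its size divided by the square root of F. The fit was tested on simulated data. Totals of 33404087 to 42891015 reads and a biological coefficient of variation of 6.85% set the precision. Levels between genes are CPM per kb of bases belonging to a single listed transcript.

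The members and lists were chosen with earlier results of these data known, and so were the tests. Named genes were the 10 members, Crebl2, tested relatives of the family, from each other list called genes among the 3 with the smallest p, tested genes within 300 kb of Fmod or Prelp and the 5 genes most like each of them. Cenpp, and Scx, Tnmd, Fabp4 and other marker genes are named outside that rule, after their values were seen. The result of 1 gene among those listed is left out and not reported here. Replicates of a group differed by more than sampling noise, so each was counted as a library. Alternatives were DESeq2 1.42.0, RLE scaling, other filters, protein-coding genes only, only the groups compared, the replicate block, transcripts tested on their own, and leaving out each library. Promoter windows came from RefSeq (GRCm38.p6), and protein sequences were not used here.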

Additional observations from a re-analysis of the deposited data

How the results depend on the processing

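Of 693 alternative values of single members, 687 were counted as the same. Where a test was run, this meant the same side of the threshold and, if either value was called, the same direction. For Fmod and Prelp in contrasts without a test, it meant the same direction and a shift below the SD within groups. Changes near 0 that were not called could switch sign, as for Bgn with Crebl2 siRNA in ethanol (-0.020 to 0.048). The 4 that lost the call were all of Lum with rapamycin in the Crebl2 siRNA cells, given with the result (the cause was not tested). Without replicate 2 of Crebl2 siRNA with rapamycin, the difference of the Prelp rapamycin responses was 0.045 in place of -0.14 (-0.20 to 0.045 over the libraries left out), and its log2 change with rapamycin was 1.90 in place of 1.75 (that library was the lowest of its group for Prelp). With the loss of Lum the count of members called with rapamycin in the Crebl2 siRNA cells went from 4 to 3. Without a low-count filter the count with Crebl2 siRNA in ethanol went from 6 to 7. The added member was not Bgn but Kera, with 12 reads with Luc siRNA and ethanol and 0 with Crebl2 siRNA and ethanol. No other count of members called changed. Over all genes, edgeR called 159 in the difference of the rapamycin responses, DESeq2 391 and edgeR without a low-count filter 415 (the cause was not tested). The count was 85 to 102 when 1 of 4 libraries was left out. These were replicate 2 of Luc siRNA with ethanol, 3 of Luc siRNA with rapamycin, 1 of Crebl2 siRNA with ethanol and 3 of Crebl2 siRNA with rapamycin. In the other 4 contrasts counts moved by less than 1.5 times.

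Same-numbered libraries did not deviate together over the tested genes (correlations of -0.29 to 0.11), so no pairing was used in the main fit. With 3 libraries per group these correlations cannot exclude a pairing by number. For Omd and Ogn replicate 2 was the highest in both ethanol groups and the lowest in both rapamycin groups. With the replicate block 6 members were called in each siRNA contrast, as without it, and 91 genes in the difference of the rapamycin responses in place of 159. Few countable bases limit Dcn, Bgn, Aspn and Podn and the relatives Optc and Tsku, and few reads limit Lum and Kera.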
